A study of Tuber melanosporum with 9 samples.

Results

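Copia elements of the black truffle Tuber melanosporum are the subject of this report. They comprised 1459 of the 27168 classified transposable elements (TEs) in the repeat annotation (5.37%), and of 45028 annotated repeats in all. A copy is here a row of that annotation whose class is Copia, placed by its scaffold, start and end on assembly v1.0, which was built from strain Mel28. An element that is broken into pieces therefore counts as several copies, and the class was taken as annotated. The 1459 copies spanned 1977336 bp, or 1.58% of the assembly, on 235 scaffolds. They measured 202 to 11447 bp, with a median of 654 bp and an interquartile range of 332 to 1818 bp. Their names fall into 36 families, written below by the core of the annotated name (R481, G5797). The Gypsy elements of the same annotation numbered 13248 copies, had a median of 1318 bp and covered 29.2% of the assembly.

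Copia (or Ty1/Copia) elements are retrotransposons that copy themselves through an RNA intermediate. A full-length element is flanked by a pair of long terminal repeats (LTRs), of which the upstream copy carries the promoter, and it encodes a capsid protein, a protease, an integrase and a reverse transcriptase. Copia and Gypsy elements share these parts and differ in the order of the integrase and reverse transcriptase domains. Fungi commonly restrain such elements by methylating their cytosines. CG sites are symmetric and can be kept through replication by copying the mark from the old strand, whereas CHH sites (H is A, C or T) are not symmetric and need methylation to be set anew. 5-methylcytosine also deaminates to thymine, so that long-methylated sequence tends to lose CG sites. No nucleotide sequences are shown.

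Bisulfite sequencing, in which unmethylated cytosines are read as T, covered 5 libraries, and RNA sequencing covered all of these except the root tips. The fruitbody (FB) was a mature truffle of a strain that the sources do not state. The free-living mycelium (FLM) was the Mel28 strain grown on malt agar. Ectomycorrhizal root tips (ECM) came from hazel plantlets inoculated with mycelium and also held host cells. The untreated and 5-azacytidine-treated (5-aza-treated) mycelia were wild-type Mel28 liquid cultures kept in the dark at 23 °C. The treated culture received 100 µM of 5-azacytidine, an inhibitor of DNA methyltransferases, every 5 days for 45 days, and the untreated culture received water. Each condition has 1 library, so no difference between conditions has a replicate check and no p-value is given. Stage, strain and growth conditions of FB, FLM and ECM cannot be told apart. Intervals below are exact 95% intervals that cover counting error only and treat the copies or reads counted as independent.

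At CG sites the Copia elements had lower levels in all 5 libraries than the mean of all classified TEs and than Gypsy elements. Averaged over Copia CG sites, FB had 31.2%, FLM 38.8%, ECM 30.01%, the untreated culture 42.5% and the 5-aza-treated culture 40.4%. Over all classified TEs it was 75.3%, 75.7%, 70.2%, 78.5% and 78.3% in the same order, and over Gypsy elements 81.6%, 80.7%, 79.2%, 84.9% and 84.8%. LTR elements that the annotation places in no superfamily lay between them, at 63.3% in FB and 62.9% in FLM. Levels outside CG were lower in Copia as well. At CHG sites Copia elements had 7.71% in FB and 8.10% in FLM, against 16.8% and 14.9% in Gypsy. At CHH sites the Copia values were 8.39% in FB and 9.49% in FLM, against 19.1% and 18.3% in Gypsy. Cytosines entered these means from 4 reads on, and in ECM from 1 read on. The Copia CG cytosines kept were 95.1% of those listed in FB, 97.7% in FLM, 66.6% in the untreated and 81.2% in the treated culture, with a median of 24, 22, 7 and 8 reads. In ECM 39.3% were kept, at a median of 1 read, so that single ECM levels are coarse. The means of the libraries thus rest on different sites. At CG sites kept in both of a pair, the untreated and treated cultures each had 41.2%. FLM and the untreated culture had 40.1% and 42.0%, and FB and FLM 31.0% and 38.3%. ECM had 29.6% where FB had 27.8%, and 29.7% where FLM had 35.2%.

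Single Copia copies fell into a group near 0 and a broad group at or above 50%, with few from 10% to 50%. At or above 80% stood 25.1% of measured copies in FB and 31.0% in FLM. Of 1407 copies measured in FB (at least 4 CG sites), 725 had a CG level below 10% (51.5%, interval 48.9% to 54.2%), 561 had at least 50% (39.9%) and 121 lay between. FLM had 640 of 1408 copies below 10% (45.5%, interval 42.8% to 48.1%) and 646 at or above 50% (45.9%). The untreated culture had 602 of 1313 below 10%, the treated culture 622 of 1368 and ECM 573 of 1120. The median copy stood at 6.91% in FB, with quartiles of 0.614% and 80.1%, and at 31.3% in FLM, with quartiles of 0.286% and 83.5%. The median Gypsy copy stood at 84.8% in FB and 85.3% in FLM. A similar split was present in LTR elements without a superfamily, so it was not particular to Copia. Of those copies 41.2% were below 10% and 57.7% at or above 50% in FB. In FLM the shares were 41.1% and 57.9%.

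**Figure D1:**
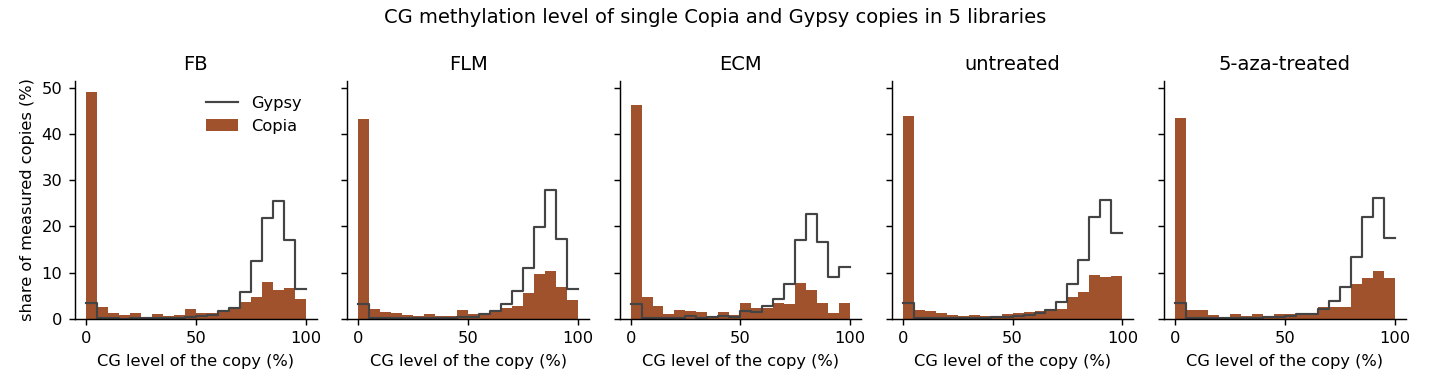
Share of measured copies (y axis, %) by the CG methylation level of the copy (x axis, bins of 5 percentage points) in each of the 5 bisulfite libraries, with Copia copies as bars and Gypsy copies as a line. Copia has a peak next to 0 in every library (51.5% of copies below 10% in FB and 45.5% in FLM) and a broad group at high levels where the Gypsy copies lie; there are no error bars because each panel is 1 library.

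Each copy was then given a state from its FB and FLM levels. Copies with at least 50% CG methylation in both numbered 532 and are called methylated. Copies below 10% in both numbered 622 and are called unmethylated. The other 251 measured copies are called intermediate, and 54 copies had too few CG sites in either library. Since FB and FLM levels made the states, they are not evidence for them, and the measures below are those the states did not use.

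The states recurred in the libraries that played no part in the choice. In the untreated culture 490 of 494 methylated copies stood at or above 50%, and 578 of 587 unmethylated copies stood below 10%. The median was 88.6% for the first and 0.248% for the second. In ECM 355 of 408 methylated copies stood at or above 50% (median 75.7%), and 499 of 511 unmethylated copies stood below 10% (median 0%). These ECM counts are rough, since its CG sites had a median of 1 read. The treated culture had medians of 88.7% and 0.303%. Outside CG the 2 states also differed. Methylated copies carried a CHH level of 18.2% in FB and 18.1% in FLM, close to the 19.4% and 18.5% of methylated Gypsy copies. Unmethylated Copia copies had 0.714% and 0.459%. Bisulfite read depth also differed between the states in FB and FLM, but not in the same way in every library. Relative to the mean depth of each library, the median was 0.914 in FB and 0.842 in FLM for methylated copies, and 1.28 and 1.17 for unmethylated copies. For methylated and unmethylated copies it was 0.834 and 0.767 in the untreated culture. The treated culture had 0.912 and 0.952, and ECM 0.858 and 1.01. The part of depth in the levels was not tested, beyond the alternatives given at the end.

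Length and state were related differently in Copia than in the other LTR elements. Among Copia copies up to 500 bp, 320 of 558 measured copies were unmethylated (57.3%, interval 53.1% to 61.5%). The share was 31.1% (128 of 412) over 500 and up to 1500 bp and 34.6% (104 of 301) over 1500 and up to 4000 bp. Over 4000 bp it was again 52.2% (70 of 134, interval 43.4% to 60.9%). In that range 11 of 3370 Gypsy copies were unmethylated (0.326%), as were 6 of 92 LTR elements without a superfamily (6.52%). Among copies up to 500 bp the unmethylated share was 9.44% in Gypsy and 71.3% in the unplaced LTR elements, and in both it was lower in each longer range. The 70 long unmethylated Copia copies belonged to 15 families and the 44 long methylated ones to 8. These counts are descriptions of 1 annotation and 2 libraries, without a test.

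**Figure D2:**
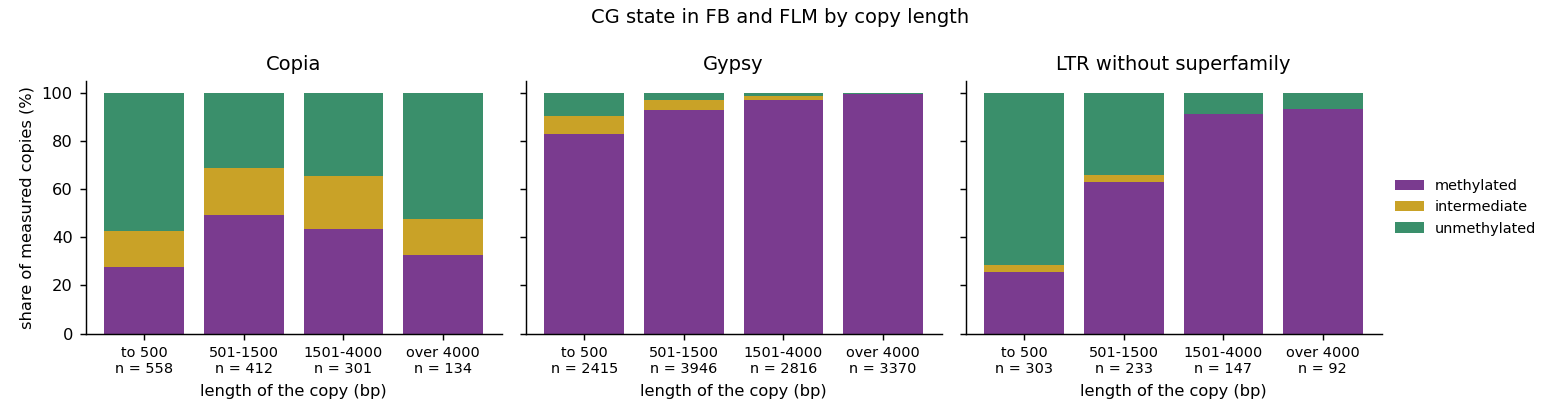
Share of measured copies (y axis, %) in the methylated, intermediate and unmethylated CG state (colours), for 4 length ranges (x axis, bp, with the number of measured copies) in Copia, Gypsy and LTR elements without a superfamily. The unmethylated share is 57.3%, 31.1%, 34.6% and 52.2% from the shortest to the longest Copia copies, and 0.326% in Gypsy copies over 4000 bp.

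The 5 longest copies included both states. The longest, of R1787 (11447 bp; scaffold 5, 217627 to 229073), had CG levels of 2.896% in FB, 5.08% in FLM, 4.30% in ECM, 6.64% in the untreated and 6.80% in the treated culture. A second R1787 copy on the same scaffold (11435 bp; 57683 to 69117) had 3.98%, 2.98%, 2.58%, 5.22% and 4.44% in that order. Both were therefore low in every library. Next in length were R2344 copies of 9761 bp on scaffold 341 and 9171 bp on scaffold 273, with 52.8% and 57.4% in FB and 46.1% and 50.6% in FLM. An R836 copy of 5997 bp on scaffold 158 followed, with 85.6% in FB and 87.1% in FLM.

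Single CG sites were also examined in the liquid cultures, which the states did not use. Of the CG sites in unmethylated copies, 98.3% in the untreated and 98.6% in the treated culture had levels below 20%. In methylated copies 80.9% and 81.7% of sites exceeded 80%. Pooled over the 251 intermediate copies, 38.5% of sites in the untreated culture were below 20%, 52.5% above 80% and 9.02% between. These shares are over all sites of a state and do not show how the sites are divided within a copy.

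CG levels were lower beside methylated copies than within them, but were not low there. Over the 532 methylated copies the mean FB level was 79.8% in the body, 72.3% in the 200 bp before the start, 65.5% in the 200 bp after the end, and 60.5% between 1 and 2 kb before the start. For the 44 methylated copies over 4000 bp the step was larger, from 78.1% in the body to 36.4% in the 200 bp before and 37.2% in the 200 bp after. CHH levels did not have this step over the 532 copies, at 18.2% in the body, 18.7% in the 200 bp before and 18.5% in the 200 bp after. The 44 copies over 4000 bp did have a CHH step in FB. Their level was 16.6% in the body, 12.4% in the 200 bp before and 14.0% in the 200 bp after. Around the 622 unmethylated copies the flanks were low too, at 4.08% in the 200 bp before the start and 8.55% between 1 and 2 kb before it, beside 1.09% in the body. The 70 unmethylated copies over 4000 bp had 1.04% in the body and 22.5% in the far upstream flank. Flanks can hold other repeats, which were not removed.

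**Figure D3:**
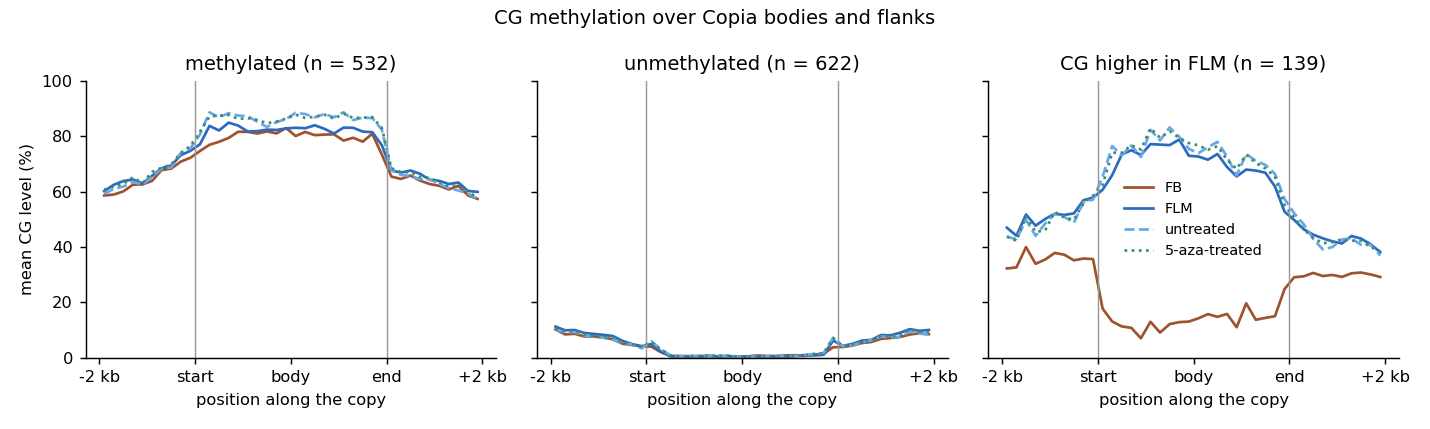
Mean CG methylation level (y axis, %) in 200 bp bins over 2 kb on each side and in 20 equal bins over the body of the copies (x axis), for methylated copies, unmethylated copies and copies with CG called higher in FLM, with 1 line per library and no error bars. The body of methylated copies stands at 79.8% in FB against 1.09% in unmethylated ones, and in the panel of copies higher in FLM the FB line drops to 13.9% in the body while FLM stands at 70.3% and the untreated and treated cultures lie near FLM.

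Sequence composition, which the states did not use, differed between them. The ratio of observed to expected CG dinucleotides had a median of 0.409 in methylated copies (quartiles 0.294 and 0.550), 0.491 in intermediate and 0.643 in unmethylated copies (quartiles 0.539 and 0.778). The counts of CA and TG dinucleotides, the products of deamination at CG, relative to base composition were 1.19 in methylated and 1.14 in unmethylated copies, a smaller difference. The difference in CG content was also present among copies over 1500 bp, at 0.469 in 175 methylated and 0.615 in 174 unmethylated copies. GC content was close, at 41.2% and 42.7%. In Gypsy the median CG ratio was 0.577 in methylated and 0.749 in unmethylated copies. Over 1500 bp these Gypsy medians were 0.602 and 0.692, so long methylated Gypsy copies stood close to long unmethylated Copia copies. These values were counted from the cytosines listed in the methylation calls of any library, so a cytosine without a read counts as absent.

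Unmethylated copies lay next to a gene more often than methylated ones. Of the 1459 copies, 78 overlapped or lay within 1 kb of a gene (5.35%, beside 5.09% of all classified TEs and 2.49% of Gypsy copies). They included 59 of 622 unmethylated copies (9.49%), 10 of 251 intermediate and 8 of 532 methylated copies (1.504%). An overlap with a gene was found for 19 copies, 15 of them unmethylated. Most copies of each state were far from genes, and the median distance to the nearest gene on the same scaffold was 22168 bp for methylated and 23345 bp for unmethylated copies.

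State followed family in part. Of the 34 families with at least 5 copies, 32 held both methylated and unmethylated copies, but in shares that ranged from 3.23% to 100% unmethylated. The largest family, R339 (106 copies), was mostly methylated, with 80 methylated and 12 unmethylated copies and medians of 79.9% in FB and 81.5% in FLM. R273 (104 copies) consisted of short pieces with a median of 293 bp and was spread over 37 methylated, 39 intermediate and 14 unmethylated copies. R481 (81 copies) is described with the stages below. G5967 (70 copies) had 47 unmethylated and 12 methylated copies, R631 (68 copies) 33 and 26, and G8871 (66 copies) 36 and 20. At the ends of the range, R1336 had 30 methylated and 1 unmethylated copy of 34. G3718 (13 copies) was the family whose copies were all of the same state: each was unmethylated, and the median CG levels were 0.821% in FB and 0.164% in FLM. G8768 had 39 unmethylated and 0 methylated copies of 44. Copies of a family share sequence and are not independent, and these families are given as counts without a test.

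**Figure D4:**
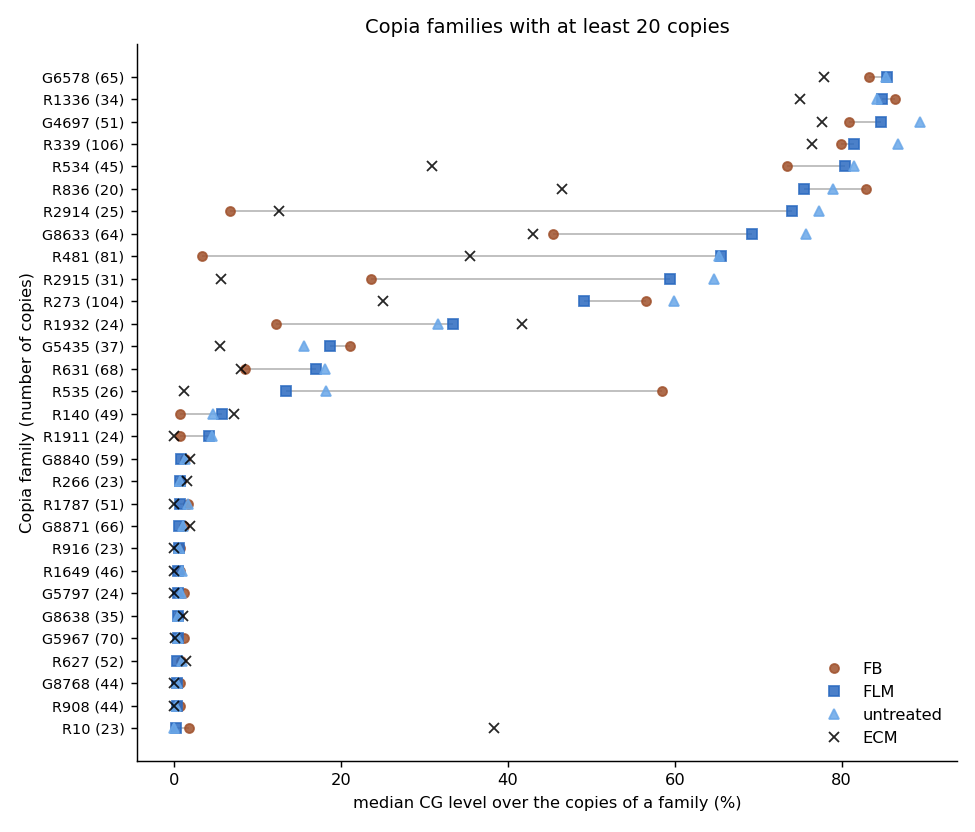
Median CG methylation level over the copies of a family (x axis, %) for Copia families with at least 20 copies (y axis, number of copies in parentheses), in FB, FLM and the untreated culture over copies measured in FB, FLM and both liquid cultures, and in ECM over the copies measured there. Grey lines join FB and FLM; R481 stands at 3.28% in FB and 65.5% in FLM, whereas R339 (79.9% and 81.5%) and G8768 (0.636% and 0.299%) have similar values in both.

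Copia differed from other TEs in the comparison of the fruitbody with the mycelium. A copy was called different when its mean CG levels were at least 20 points apart and the difference lay past a two-sided 5% normal limit over all classified TEs. That limit amounted to 27.4 points for copies higher in FLM and 26.0 points for copies higher in FB. Of 1405 Copia copies measured in both, 139 were higher in FLM (9.89%), where 3.58% of all classified TEs and 2.05% of Gypsy copies were so called. The other direction held 38 Copia copies (2.70%), beside 2.13% of all classified TEs. The excess was therefore in the copies higher in FLM. Most copies hardly differed, and the median difference of FB minus FLM was 0.12 points over all Copia copies.

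The 139 copies higher in FLM measured 240385 bp in all, came from 30 families and lay on 68 scaffolds. Of these, 39 lay within 5 kb of another such copy, so they are not all separate loci. By the choice itself, their medians were 8.46% (FB) and 79.3% (FLM). In libraries that the choice did not use, the median was 81.5% in the untreated culture (126 copies measured), 83.1% in the treated culture (135 copies) and 40.7% in ECM (115 copies). At the same CG sites, ECM stood at 43.3% where FB stood at 12.9%, and at 43.7% where FLM stood at 69.4%. The mycelia, all of Mel28, were thus alike at these copies, FB stood apart and ECM lay between in its median and site means. Single copies spread widely in ECM, with quartiles of 11.7% and 66.0%. Of the 115 copies, 28 stood below 10% and 49 at or above 50% there. The choice set FB and FLM far apart, which leaves a wide range for a further library to lie between. CHH levels showed the same order, at 3.68% in FB, 9.75% in ECM, 13.9% in FLM and 16.7% in the untreated culture. The median relative bisulfite depth of these copies was 1.28 in FB and 0.953 in FLM, against 1.06 and 1.01 for copies called in neither direction. The part of depth or of copies that FB has elsewhere in its genome was not tested. RNA on these 139 copies amounted to 10 reads in FB and 2 in FLM. In the 38 copies higher in FB the median was 86.0% in FB and 36.3% in FLM. It was 36.0% in the untreated culture (33 copies measured) and 32.6% in ECM (23 copies). At the same CG sites, ECM stood at 35.9% where FB stood at 73.6%, and at 35.9% where FLM stood at 24.7%.

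R481 held 32 of the 139 copies, out of 81 measured (39.5% of the family). The median R481 copy stood at 3.97% CG in FB (81 copies, quartiles 0.705% and 58.5%), 67.3% in FLM (81 copies, quartiles 6.77% and 84.3%), 35.4% in ECM (72 copies), 65.3% in the untreated (77 copies) and 67.2% in the treated culture (79 copies). Below 10% there were 52 copies in FB and 22 in FLM. At or above 50% there were 22 in FB and 47 in FLM. R481 had almost no RNA, with 4 reads in FB, 0 in FLM and 2 in each liquid culture over all copies. G8633 added 15 copies higher in FLM of 63 measured, and R339 added 11 of 106.

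Single copies with the largest differences went from one end of the scale to the other. An R273 copy of 292 bp (scaffold 16, 583436 to 583727) had 0% in FB, 93.5% in FLM, 95% in the untreated and 100% in the treated culture, over 8 CG sites in FB and FLM. An R481 copy of 562 bp (scaffold 391, 3980 to 4541) had 0.677% in FB, 89.8% in FLM, 5.17% in ECM, 96.7% in the untreated and 95.4% in the treated culture, over 28 CG sites. The other 3 of the 5 largest differences in this direction were copies of R2915 (scaffold 4, 396 bp), G6578 (scaffold 2, 1047 bp) and G8633 (scaffold 86, 400 bp), each with 4 to 6 CG sites in FB and in FLM. Their levels were 0%, 1.39% and 0.340% in FB and 91.8%, 92.1% and 90.6% in FLM.

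In the other direction, 3 of the 5 largest differences were neighbours on scaffold 32. An R535 copy of 1286 bp (638067 to 639352), an R534 copy of 541 bp (639600 to 640140) and an R534 copy of 2217 bp (640306 to 642522) had 70.9%, 86.5% and 62.7% in FB. In FLM they had 0.105%, 4.99% and 2.83%, and in the untreated culture 0%, 4.60% and 2.68%. Their distances to each other are short, and they may count as a single locus. The remaining pair was an R1787 copy of 415 bp on scaffold 250, with 86.3% in FB and 23.4% in FLM, and an R339 copy of 3128 bp on scaffold 255, with 68.0% in FB and 9.07% in FLM.

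5-azacytidine treatment was accompanied by lower CHG and CHH levels of Copia copies, while their CG levels hardly differed. Over cytosines with at least 4 reads in both cultures, the CHH level was 10.8% in the untreated and 8.95% in the treated culture, so that 82.6% of the untreated level remained. CHG levels were 9.60% and 7.83%, or 81.5% of the untreated level. CG levels were 41.2% in both. Gypsy elements kept 83.4% of their CHH and 82.5% of their CHG level, so Copia was not set apart in relative terms. In methylated Copia copies CHH levels went from 20.9% to 17.4%, and in unmethylated copies from 0.624% to 0.536%.

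By copy, 202 of 1447 Copia copies were lower in CHH by at least 5 points (14.0%, beside 24% of all classified TEs), and 8 were higher by as much, where the background was 0.863%. In CHG 203 of 1400 copies were lower by 5 points or more (14.5%, beside 24.5% of all TEs) and 24 were higher (background 2.34%). The smaller shares of Copia go with the many copies that had next to no methylation outside CG. Among methylated copies 145 of 530 (27.4%) were lower in CHH by at least 5 points, and among unmethylated copies 0 of 618. In CG 2 of 1282 copies were lower by at least 20 points and 0 were higher, beside 0.0461% and 0.0377% of all classified TEs. The 5 largest differences downward were in short methylated copies of 205 to 331 bp. A G5967 copy of 331 bp (scaffold 30, 70548 to 70878) had 35.6% CHH in the untreated and 18.7% in the treated culture over 44 sites. An R1336 copy of 282 bp on scaffold 76 had 32.9% and 16.8% over 22 sites, and its CG level was 90.0% and 96.9%. R273 copies on scaffolds 107 and 72 differed by -14.9 and -14.8 points and a G4697 copy on scaffold 92 by -14.2 points. Of the 5 largest differences upward, that of a G8840 copy of 653 bp on scaffold 32 went from 13.0% to 21.2% over 51 sites. Copies of R140, R10, R1787 and R481 followed with 7.67, 6.22, 5.97 and 5.69 points. All 10 copies had 0 RNA reads in both cultures.

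RNA came from few Copia copies, and from none of the methylated state above the threshold. The 4 libraries held 23397373 (FB), 23816308 (FLM), 22446163 (untreated) and 21802480 (treated) reads on genes. On Copia copies there were 19854, 26134, 24842 and 21722 reads. At least 1 read was found on 129 copies in FB, 109 in FLM, 174 in the untreated and 156 in the treated culture. The deposited RPKM (reads per kb and 1000000 mapped reads) exceeded 1 for 19 copies in FB (1.30%, beside 0.858% of all classified TEs) and for 23 in FLM (1.58%, beside 0.872%). For the liquid cultures the scale was reads per kb and 1000000 reads on genes, on which a value of 3 is close to an RPKM of 1. There 25 copies in the untreated (1.71%) and 22 in the treated culture (1.51%) exceeded 3, beside 0.997% of all classified TEs in each.

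Of the 29 copies with RPKM above 1 in FB or FLM, 26 were unmethylated, 2 intermediate and 1 without a state. The 532 methylated copies together had 7 reads in FB, 4 in FLM, 35 in the untreated and 20 in the treated culture, and the highest count on any of them was 5 reads. The 622 unmethylated copies had 12941, 13266, 15470 and 14831 reads. Most unmethylated copies had no RNA either, since a read was found on 101 of them in FB and 88 in FLM. Of the same 29 copies 11 overlapped a gene and 17 lay within 1 kb of one (58.6%, beside 5.35% of all Copia copies). Reads of such a copy and of its gene cannot be told apart, and the sources do not state whether counting used strand. Reads of 50 nt that fit several copies equally well were not counted, so copies that are near-identical are undercounted.

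The highest level was on a G5797 copy of 317 bp (scaffold 47, 659849 to 660165), of which 266 bp overlap the gene GSTUMT00008493001. It had 6068 reads in FB, 11308 in FLM, 7903 in the untreated and 5534 in the treated culture, or 818, 1498, 1111 and 801 on the scale of gene reads. Bisulfite depth at this copy was 0.009 of the library mean in FB and 0.749 in FLM, so that FB gave no methylation level, and FLM gave 0% over 10 CG sites. Depth was also low in ECM (0), the untreated (0.166) and the treated culture (0.256), which gave no CG level either. The copy is among 3 Copia copies with under 0.1 of the mean depth in FB and at least 0.5 in FLM (0.206%, beside 0.353% of all classified TEs), and 0 copies had the reverse. The other 2 were an R881 copy of 4127 bp on scaffold 33 and a G5967 copy of 5564 bp on scaffold 43.

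Among the other 9 copies with most RNA per length was an R1787 copy of 1745 bp (scaffold 5, 1600246 to 1601990). It lay 404 bp from a gene and had 2798 reads in FB, 1725 in FLM, 3632 in the untreated and 3391 in the treated culture, at CG levels from 0% to 0.639% in the 5 libraries. R1787 copies of 221 bp on scaffold 2 (306, 170, 157 and 200 reads) and 232 bp on scaffold 240 (24, 80, 231 and 211 reads) lay wholly within genes. An R273 copy of 279 bp on scaffold 333 had 228, 637, 206 and 176 reads and shared 79 bp with a gene. Another R273 copy, of 289 bp on scaffold 17 and 70 bp from a gene, had 10 reads in FB and 254 in FLM, then 96 and 71. A G5967 copy of 287 bp on scaffold 6, which shared 239 bp with a gene, had 198, 104, 42 and 33 reads. The R881 copy of 2287 bp on scaffold 116, 5891 bp from a gene, had 1454, 833, 243 and 98 reads. All 7 were unmethylated, and the remaining 2 belong to G5797.

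**Figure D5:**
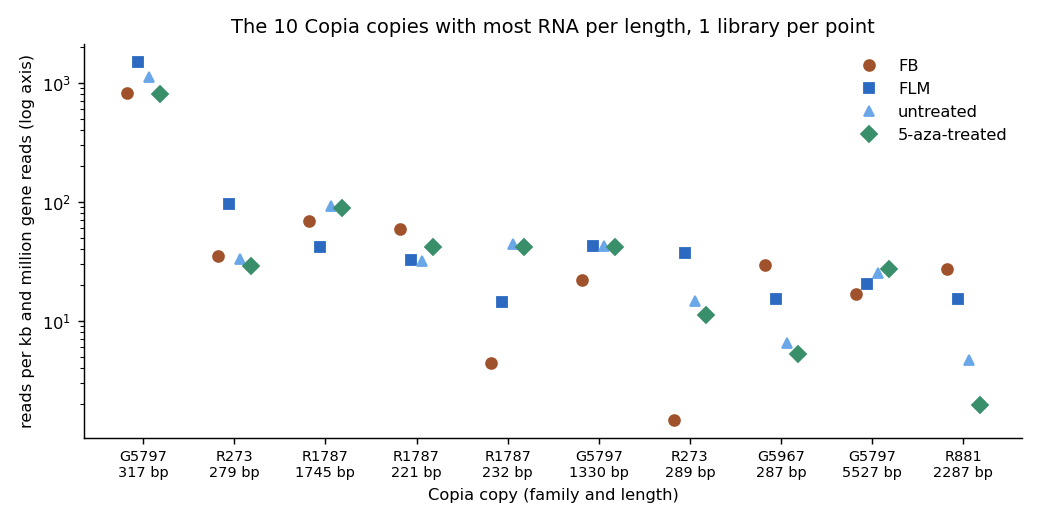
Reads per kb and 1000000 reads on genes (y axis, log scale) in the 4 RNA libraries (symbols) for the 10 Copia copies with most RNA per length (x axis, family and length); each point is 1 library, without an error bar. The G5797 copy of 317 bp stands highest, at 818 in FB, 1498 in FLM, 1111 in the untreated and 801 in the 5-aza-treated culture, whereas the R881 copy of 2287 bp ranges from 27.2 in FB to 1.96 in the treated culture.

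G5797 was the family with most Copia RNA. It had 24 copies and took 60.1% of Copia reads in FB, 79.99% in FLM, 73.1% in the untreated and 73.3% in the treated culture. Without the copy of 317 bp it still had 5865, 9597, 10260 and 10399 reads. Long copies carried much of this. The copy on scaffold 2 (5527 bp; 405775 to 411301) had 2183 reads in FB, 2690 in FLM, 3108 in the untreated and 3307 in the treated culture. That on scaffold 36 (5526 bp; 408149 to 413674) had 1371, 2468, 2510 and 2458, and that on scaffold 77 (5526 bp; 493020 to 498545) had 1054, 1848, 1994 and 2018. All 3 had RNA in every library, with FB lowest in read count. A copy of 4200 bp on scaffold 171 had 281, 629, 815 and 796 reads, and 1 of 4118 bp at the edge of scaffold 13 had 267, 547, 446 and 511. The lengths of the first 3 copies differ by 1 bp. The CG level of the 5 copies, over 9 to 140 CG sites in FB, did not exceed 1.54% in any library. Their bisulfite depth over listed cytosines was 0.131 to 0.914 of the mean in FB and 0.491 to 0.789 in FLM. The GC content counted from listed cytosines was 6.30% to 14.5% in these copies, beside a median of 42.0% over all Copia copies. Cytosines without a read in any library count as absent there, so these levels and depths may cover only a small part of each copy. A further G5797 copy of 1330 bp on scaffold 171, next to the copy of 4200 bp, had 683, 1348, 1275 and 1209 reads at CG levels of 2.94% in FB, 13.1% in FLM and 22.3% in the untreated culture.

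Besides these, G5797 had 14 copies of 306 to 320 bp, the 317 bp copy among them. Of these, 11 were unmethylated, 1 methylated, 1 intermediate and 1 without a state, and at least 1 read was found on 1 of them in FB and on 3 in FLM. The other short copies of this size thus had next to no counted RNA.

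Between FB and FLM, 52 Copia copies had at least 10 reads in either library. By deposited RPKM, 23 were at least 2-fold higher in FLM (44.2%, beside 38.5% of all classified TEs with as many reads) and 16 at least 2-fold higher in FB (30.8%, beside 37.4%). With reads on genes as the scale the counts were 18 and 18, so which direction held more copies depended on the scale. The total behind the RPKM was 74109065 for FB and 63742213 for FLM. The authors give these same 2 numbers of mapped reads the other way round, for FLM and FB. The ratios below rest on the totals behind the RPKM. If those were exchanged by mistake, ratios of FLM to FB are too high and ratios of FB to FLM too low. Shares this close to the background say nothing particular of Copia. The largest differences toward FLM were of copies with 0 reads in FB, for which no ratio is given. A G8871 copy of 389 bp on scaffold 51 had 34 reads in FLM. The G5797 copy of 214 bp on scaffold 76 had 25 reads, an R1787 copy of 215 bp on scaffold 1 had 16, an R459 copy of 2639 bp on scaffold 31 had 15 and the G5967 copy of 5564 bp on scaffold 43 had 12. The G5967 copy was at 0.048 of the mean bisulfite depth in FB and 1.19 in FLM, and the part of this in its RNA difference was not tested.

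Toward FB the largest ratio was of an R459 copy of 5879 bp (scaffold 30, 369221 to 375099), with 42 reads in FB, 1 in FLM, 3 in the untreated and 1 in the treated culture. Its ratio was 36.1 with an interval of 6.14 to 1460 that 1 read leaves wide. An R1787 copy of 1171 bp on scaffold 14 had 660 reads in FB and 23 in FLM, a ratio of 24.7 (interval 16.3 to 39.2), and shared 103 bp with a gene. A second R459 copy, of 2354 bp on scaffold 6, had 689 and 59 reads (ratio 10.0, interval 7.69 to 13.3). The 11435 bp R1787 copy on scaffold 5 had 74 and 7 reads (ratio 9.09), and an R534 copy of 845 bp on scaffold 6, which shared 191 bp with a gene, had 426 and 41 (ratio 8.94). All 5 were unmethylated in both stages, so these RNA differences were not accompanied by a CG difference.

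Between the liquid cultures, 45 copies had at least 10 reads in either. At least 2-fold higher after 5-azacytidine were 5 copies (11.1%, beside 14.7% of all classified TEs), and 5 were at least 2-fold lower (11.1%, beside 10.8%). The median log2 ratio over the 45 copies was 0.01. Copies higher after treatment had few reads except the R534 copy of 845 bp on scaffold 6, which went from 57 to 146 reads (ratio 2.64, interval 1.93 to 3.65). A G8768 copy of 2277 bp on scaffold 71 had 2 and 22 reads (ratio 11.32, interval 2.78 to 99.3), and the G5797 copy of 214 bp had 1 and 11. R1911 and R631 copies had 2 reads each before and 11 and 10 after. Lower after treatment was a G5967 copy of 3863 bp (scaffold 20, 341465 to 345327), with 708 reads in the untreated and 211 in the treated culture (ratio of untreated to treated 3.26, interval 2.79 to 3.82). The same copy had 8 reads in FB and 116 in FLM. The R881 copy on scaffold 116 went from 243 to 98 reads (2.41, interval 1.90 to 3.08), the R1787 copy on scaffold 14 from 94 to 44 (2.08), the G5967 copy on scaffold 43 from 44 to 14 (3.05) and a G8840 copy of 1867 bp on scaffold 8 from 37 to 15 (2.40). CG levels of these 10 copies were below 2% in both cultures.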

How the data were processed

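The authors aligned bisulfite reads with BS Seeker (version not given in the sources used here) to the v1.0 assembly (398 scaffolds, 124945702 bp) and deposited counts of methylated and of all reads per cytosine. The mean depth per listed cytosine was 20.1 reads in FB, 19.9 in FLM, 1.35 in ECM, 7.35 in the untreated and 8.64 in the treated culture. RNA reads of 50 nt were aligned with TopHat and counted with HTSeq 0.5.4p3 (per the submitters' processing notes); the authors deposited raw read counts per gene and TE and, for FB and FLM, RPKM values. The RNA integrity number was 7.0 in FB and 6.5 in FLM. The lengths of the scaffolds (a value of another kind) come from a log deposited with the calls. Other columns hold the authors' log2 ratios and p-values and were not used, nor were 6 columns of RPKM values, of which those of the 5-aza tables do not name a sample. For the liquid cultures, reads were therefore scaled per kb and 1000000 reads on genes, in place of the RPKM planned. The RPKM values of FB and FLM imply totals of 74109065 and 63742213, which the authors give as the mapped reads of FLM and FB.

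Call positions of FB, FLM and ECM count from 0 and those of the liquid cultures from 1, so the latter were shifted by 1. Contexts and strands then met without a conflict. A level is the mean of per-cytosine percentages over cytosines with at least 4 reads (1 in ECM), and a copy needed 4 such cytosines. Gene positions came from the RefSeq annotation ASM15164v1 for 7420 of 7496 genes. Ratios of read counts carry exact conditional binomial intervals; for FB and FLM they use the totals behind the RPKM. Python 3.11.15, numpy 2.4.6, pandas 2.3.3, scipy 1.17.1 and matplotlib 3.10.9 were used, and the calls and intervals were tested on simulated data. Terminal repeats and reading frames were not analysed here. Named copies are the 5 longest, the 10 with most RNA per length (at least 10 reads), the 5 largest differences each way of CG, CHH (at least 10 sites) and RNA, the 6 largest families and any family of at least 5 copies of a single state; other families and copies named were chosen after their values were seen. The members and lists were chosen with earlier results of these data known. Alternatives varied minimum reads and sites, pooling, limits, scaling and the copies included.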

Additional observations from a re-analysis of the deposited data

How the results depend on the processing

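Of 160 alternatives for 42 results, 134 left the value within an interval or, for counts and medians, within 1.5 times, and 26 moved it. Of the latter, 24 are given here and the others concern ECM outside CG. For shares of copies the interval was the exact counting interval. For levels it was a Wilson interval that treats the level as a share of the measured copies, which serves only as a tolerance. Requiring 10 reads per cytosine gave CG levels of 27.4% in FB, 35.1% in FLM and 35.7% in the treated culture, and pooling reads gave 23.0% in FB and 30.8% in FLM. With 4 reads in ECM, an alternative chosen after seeing the data, its CG level was 21.4%. With 10 sites per copy the share below 10% CG was 54.4% in FB and 48.5% in FLM. Limits of 20% and 80% left 277 methylated and gave 473 intermediate copies, and states from FB alone or FLM alone gave 121 or 122 intermediate copies. With 10 CG sites 25 copies were higher in FB. After 5-azacytidine 34 copies were lower in CHG and 20 in CHH by 10 points, and 0 in CG with 10 reads per site. RNA passed for 30 copies in FB at RPKM above 0.5, and without copies that overlap a gene for 8 in FB, 15 in the untreated and 13 in the treated culture. At 4-fold 12 copies were higher in FLM than FB and 0 higher in the untreated culture, and with 20 reads 2 were higher in the treated culture. Within 2 kb of a gene lay 119 copies. Leaving out 53 copies under 0.5 of the mean bisulfite depth in FB or FLM, chosen after seeing the data, was run for 6 counts (CG higher in FLM or FB and RNA at least 2-fold apart in each direction) and moved none of them by over 1.5 times. The 20 point limit had no effect of its own, since the normal limit was wider. The cause of the moves was not tested, except that stricter limits count fewer copies. No paired analysis was possible because each condition has 1 library, which also leaves no replicate to omit. At a median of 1 read per site ECM places single copies only coarsely, so ECM levels of single copies and counts made from them are rough.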
